A study of Caenorhabditis elegans with 18 samples.

Results

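Genes named *dhs-* encode short-chain dehydrogenases of *Caenorhabditis elegans*, and they were followed here in worms exposed to 5 small molecules. They were taken as the probe sets whose gene symbols in the array's annotation all start with *dhs-*, which gave 33 of the 22548 probe sets tested, for 30 genes. *dhs-3*, *dhs-4* and *dhs-28* are each measured by a pair of probe sets. Of the genes, 12 lie on chromosome V, 6 on X, 4 each on I and II, and 2 each on III and IV. Wild-type N2 worms were grown from arrested larvae for 56 h at 22°C to young adults. They were then moved to S Basal liquid with *E. coli* OP50 as food, at 6000 worms per well, and received LK32, LK34, LK35, LK38 or LK56 at 100 µM or the matching amount of the solvent DMSO for 8 h. Total RNA of whole worms was measured on 18 Affymetrix arrays, 3 per condition, lettered A, B and C. The 5 compounds share 1 set of 3 DMSO arrays as control, so the comparisons with DMSO are not independent of each other. The sources call the arrays triplicates and biological replicates without saying how they were prepared, and p values reflect the spread between these samples only.

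Short-chain dehydrogenases are enzymes with a Rossmann fold that move a hydride between NAD(H) or NADP(H) and a carbonyl or hydroxyl group of their substrate. Their substrates include steroids, retinoids, sugars, prostaglandins and fatty acid derivatives, and most members of the worm family have no assigned substrate. Among the known ones, DHS-3 is a major protein of intestinal lipid droplets, DHS-28 acts in the peroxisomal shortening of the side chains of ascaroside pheromones, and DHS-16 acts in the synthesis of dafachronic acids, the ligands of the nuclear receptor DAF-12.

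Values are linear intensities, and the lowest value of the arrays, 4.605, is the floor of the GCRMA summary. Of the 33 probe sets, 21 (19 genes) were above 5 on the log2 scale on at least 3 arrays, 7 were dim, and 5 lay at the floor on every array. *dhs-23* counts among the 21 only through its LK38 and LK56 arrays. *dhs-25* and *dhs-29* also count only through arrays of the compounds, since none of their DMSO arrays was above that limit. The probe sets at the floor everywhere were *dhs-8*, *dhs-15*, *dhs-16*, *dhs-26* and 193546_at of *dhs-4*, so the *dhs-16* probe set gave no signal above the floor with any compound or with DMSO. The dim probe sets, for *dhs-5*, *dhs-13*, *dhs-17*, *dhs-24*, *dhs-27*, *dhs-31* and 175398_s_at of *dhs-4*, had their highest values between 4.65 (*dhs-17*) and 22.4 (*dhs-5*). A call required at least a 2-fold change together with an adjusted p under 0.05 in limma (Benjamini-Hochberg, over all probe sets tested).

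Against DMSO, 8 probe sets of 7 genes were called with at least 1 compound, and all 17 calls were increases. No *dhs* probe set was called with LK32, against 0.696% of all probe sets called higher and 0% lower. Without adjustment, 4 were higher and 1 was lower with LK32 at p under 0.05 in limma. These are 12.1% and 3.03% of the 33, beside 7.34% and 1.17% of all probe sets. All lay among the 21 brighter members (4 of 21 higher and 1 of 21 lower), beside 14.3% and 2.32% of all brighter probe sets. For LK34, 2 were called, both for *dhs-3*, against 1.49% of all probe sets called higher and 0.812% lower. For LK35, 4 were called (*dhs-3* with both probe sets, *dhs-20* and *dhs-30*), against 0.993% higher and 1.15% lower. For LK38, 6 were called (*dhs-2*, *dhs-3* with both probe sets, *dhs-14*, *dhs-20* and *dhs-23*), against 1.57% higher and 0.75% lower. For LK56, 5 were called (*dhs-2*, *dhs-3* with 1 probe set, *dhs-7*, *dhs-20* and *dhs-23*), against 0.514% higher and 0.0133% lower. Probe sets at the floor on every array cannot be called, and among the 9033 brighter probe sets of the array the calls of higher level came to 1.35% for LK32, 3.55% for LK34, 2.42% for LK35, 3.8% for LK38 and 1.08% for LK56. The moderated F test over the 6 conditions passed for 11 of the 33 (10 genes), all among the 21 brighter members. It passed for 10.6% of all probe sets and 24.4% of the brighter ones. Beside the genes called against DMSO, these were *dhs-6*, *dhs-9* and *dhs-12*.

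**Figure D1:**
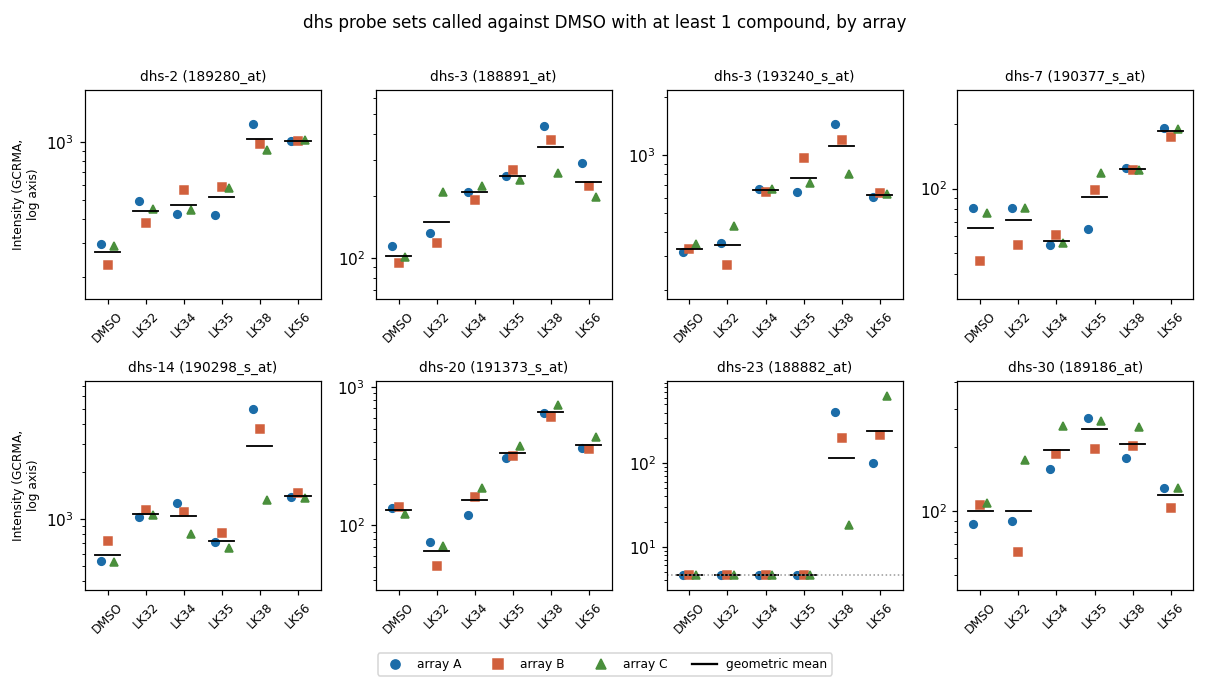
Intensity of the 8 *dhs* probe sets called against DMSO with at least 1 compound, 1 panel per probe set, on a log axis. Points are single arrays (A, B and C of each condition), bars the geometric mean of 3 arrays, and the dotted line in the *dhs-23* panel is the floor of 4.605, where all arrays of DMSO, LK32, LK34 and LK35 lie.

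*dhs-3*, the lipid droplet gene, was the member called with the most compounds, and its probe sets gave like differences. On 193240_s_at the DMSO arrays A, B and C read 315, 326 and 345, and the LK32 arrays 349, 269 and 429. The LK34 arrays read 664, 645 and 671, the LK35 arrays 645, 961 and 719.8, the LK38 arrays 1443, 1190 and 797, and the LK56 arrays 605, 636 and 632. Every array of LK34, LK35, LK38 and LK56 was thus above every DMSO array, whereas those of LK32 lay on both sides of them. The level rose 2.01-fold (LK34), 2.33-fold (LK35) and 3.38-fold (LK38) (log2 differences 1.01, 1.22 and 1.76, SE 0.21; adjusted p = 0.017, 5.0e-03 and 2.9e-04, limma). With LK56 the log2 difference was 0.93 (adjusted p = 0.070), below both limits.

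The second probe set of *dhs-3*, 188891_at, read 114, 94.5 and 101 with DMSO and 133, 118 and 211 with LK32. It read 211, 192 and 224 with LK34 and 250.4, 267 and 239 with LK35. The LK38 arrays read 437, 374 and 258 and the LK56 arrays 291, 224 and 197. All of these lay above the DMSO arrays, including those of LK32, whose array C stood apart from A and B. The log2 differences were 1.02, 1.29, 1.76 and 1.19 with LK34, LK35, LK38 and LK56 (SE 0.22; adjusted p = 0.024, 5.7e-03, 5.3e-04 and 0.030), and 0.53 with LK32 (adjusted p = 0.49). The LK34 calls of both probe sets lie just past 2-fold. Each was lost in 5 of the 6 fits that left out 1 DMSO or LK34 array, with log2 differences between 0.96 and 1.096 (188891_at) and between 0.98 and 1.04 (193240_s_at). The LK56 call was lost without any 1 of the DMSO arrays, LK56 A or LK56 B (adjusted p up to 0.14). The LK35 and LK38 calls were kept without any single array.

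*dhs-20*, a family member with no assigned substrate, separated the compounds most finely. It read 132, 135 and 122 with DMSO, and only 75.9, 51.2 and 70.7 with LK32. With LK34 it read 119, 161 and 187, with LK35 309, 318 and 374, and the LK38 arrays read 647, 609.9 and 738 and those of LK56 361, 354 and 435. The LK32 arrays lay below all DMSO arrays, the LK34 arrays overlapped them, and every array of the other 3 compounds lay above them. The level rose 2.56-fold (LK35), 5.12-fold (LK38) and 2.95-fold (LK56) (log2 differences 1.36, 2.36 and 1.56, SE 0.17; adjusted p = 6.6e-04, 6.2e-06 and 7.9e-04). With LK32 the log2 difference was -0.99 (adjusted p = 0.016), a 1.99-fold lower level that passed the p limit (as 0.0133% of all probe sets did downward) and stopped just short of the fold limit. It was the only *dhs* probe set lower than DMSO at that p with any compound.

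In the order of its levels, LK32, DMSO, LK34, LK35, LK56, LK38, the neighbors DMSO and LK34 (adjusted p = 0.80) and LK35 and LK56 (log2 difference -0.20, adjusted p = 0.72) did not differ beyond their spread. Between LK34 and LK35 the level was 2.17-fold lower in LK34 (log2 difference -1.12, 95% interval -1.497 to -0.74; adjusted p = 0.035), and between LK38 and LK56 it was 1.74-fold higher in LK38 (0.80, 0.42 to 1.17; adjusted p = 0.012). From LK32 to LK38, the ends of the order, the difference was 10.2-fold (log2 -3.35, SE 0.17; adjusted p = 3.4e-07).

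*dhs-2* rose alike with LK38 and LK56. Its DMSO arrays read 298, 231 and 289, the LK38 arrays 1243, 983 and 908, and the LK56 arrays 1018, 1011 and 1028. The arrays of the other compounds lay between those, at 496, 382 and 451 with LK32, 427, 565 and 446 with LK34, and 423, 584 and 577 with LK35. Every compound array was above every DMSO array, and no LK38 or LK56 array overlapped those of the other compounds. The increase was 3.82-fold with LK38 and 3.76-fold with LK56 (log2 differences 1.93 and 1.91, SE 0.16; adjusted p = 1.9e-05 and 8.4e-05), and LK38 minus LK56 was 0.02 on the log2 scale (95% interval -0.33 to 0.38). With LK34 and LK35 it passed the p limit, as 2.25% and 1.71% of all probe sets did upward, without reaching 2-fold (0.81 and 0.95; adjusted p = 0.015 and 5.7e-03), and with LK32 neither limit was met (0.70; adjusted p = 0.085).

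*dhs-14* showed its highest levels in LK38, with a wide spread. Its DMSO arrays read 542, 726 and 531, and the LK38 arrays 5030, 3713 and 1326. It read 1028, 1142 and 1060 with LK32, 1257, 1101 and 803 with LK34, 715, 813 and 649 with LK35, and 1376, 1458 and 1361 with LK56. LK38 A and B stood far above all other arrays, and LK38 C lay just below the LK56 arrays. The increase with LK38 was 4.91-fold (log2 difference 2.30, SE 0.36; adjusted p = 2.9e-03), and between 1.90 and 2.86 on the log2 scale when 1 array was left out, with the highest value without LK38 C. With LK56 the difference was 1.24 (95% interval 0.45 to 2.03; adjusted p = 0.17), although each LK56 array lay above each DMSO array. The interval and p use the spread pooled over the 6 conditions, which came mostly from the LK38 arrays. *dhs-15*, which is separated from *dhs-14* by 1 protein-coding gene on chromosome V, lay at the floor on all 18 arrays. The ID of the *dhs-14* probe set ends in _s_at, the array maker's mark for probes that match several transcripts, as do _s_at or _x_at on 17 of the 33 probe sets and 4 of the 8 called.

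*dhs-23* was above the floor with LK38 and LK56 alone. It read 4.605 on each of the 12 arrays of DMSO, LK32, LK34 and LK35. With LK38 it read 402, 201 and 18.1, and with LK56 101, 216 and 638. The spread among the arrays of each compound was thus wide, but none reached down to the floor. The level was at least 24.6-fold higher with LK38 and at least 52.2-fold higher with LK56 than with DMSO (log2 differences of at least 4.62 and 5.71, SE 0.89; adjusted p = 0.011 for each). The LK38 value moved with single arrays. It was at least 3.71 on the log2 scale without LK38 A, 4.21 without LK38 B, where the call was lost (adjusted p = 0.056), and 5.95 without LK38 C. The LK56 value was at least 6.33 without LK56 A and 5.004 without LK56 C. LK38 and LK56 did not differ beyond their spread (log2 difference -1.08, 95% interval -3.01 to 0.85; adjusted p = 0.70). The SE, p values and interval use 1 spread pooled over the 6 conditions, to which the 12 arrays at the floor add none. They thus understate the spread among the LK38 and LK56 arrays. Both calls against DMSO were lost in fits to the compound and DMSO alone.

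*dhs-7* rose with LK56. It read 81.0, 45.7 and 76.7 with DMSO and 192, 174 and 189 with LK56, so the LK56 arrays lay above all others. The LK38 arrays, at 124, 122 and 122, lay below the LK56 arrays and above every DMSO array, and the LK35 arrays (64.7, 98.2 and 119) overlapped DMSO. LK32 (81.0, 54.6 and 81.0) and LK34 (54.6, 60.5 and 55.5) lay within the range of the DMSO arrays. The increase with LK56 was 2.81-fold (log2 difference 1.49, SE 0.24; adjusted p = 0.013), and LK38 gave 0.90 (adjusted p = 0.061).

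*dhs-30* rose with LK35. It read 86.5, 106 and 109 with DMSO and 271, 195 and 264 with LK35. The arrays of LK34 (157, 185 and 249) and LK38 (178, 202 and 246) were also above all DMSO arrays, while those of LK32 (90.1, 64.0 and 174) and LK56 (128, 103 and 128) overlapped them. The increase with LK35 was 2.41-fold (log2 difference 1.27, SE 0.30; adjusted p = 0.037), against 0.95 with LK34 (adjusted p = 0.13) and 1.05 with LK38 (adjusted p = 0.089). The LK35 call was lost without any 1 of the DMSO arrays, LK35 A or LK35 C (adjusted p up to 0.14). LK35 did not differ from LK38 (0.22, 95% interval -0.43 to 0.88).

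The whole set of brighter members is drawn in the heat map of differences from DMSO. Their median log2 difference was 0.20 (LK32), 0.29 (LK34), 0.47 (LK35), 0.60 (LK38) and 0.81 (LK56), beside 0.12, 0.064, 0.040, 0.053 and 0.23 in the same order over all brighter probe sets. With LK56, 21 of 21 were above 0, among them *dhs-23*, *dhs-25* and *dhs-29*, which passed the brightness limit through arrays of the compounds alone. The counts and medians thus rest in part on members that were included for being high with a compound. The medians depend on the scaling, and were 0.017, 0.10, 0.39, 0.50 and 0.50 in the same order after quantile normalization and -0.0025, 0.092, 0.39, 0.40 and 0.59 after median centering. Of the 21, 16 were above 0 with LK32, 12 after quantile normalization and 10 after median centering, and with LK56 these counts were 19 and 21. These counts and medians are descriptions and were not tested.

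**Figure D2:**
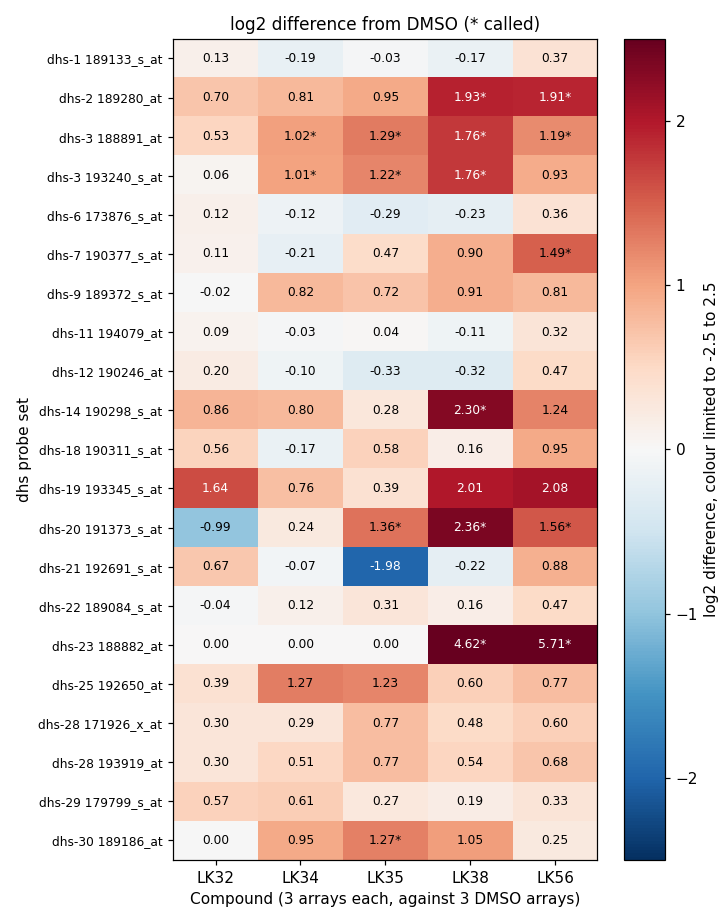
Log2 difference from DMSO of the 21 brighter *dhs* probe sets (rows) with each compound (columns), as color limited to -2.5 to 2.5 and as the printed value, with an asterisk where the probe set was called. All 17 asterisks stand on increases, and the LK32 column has none; the *dhs-23* values with LK38 and LK56 are lower bounds.

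Of the brighter probe sets, 13 were called with no compound. *dhs-28*, the peroxisomal gene, was among them. On 193919_at it read 1971, 1411 and 1462 with DMSO and 3093, 1992 and 3279 with LK35, where its difference was largest. All LK35 arrays were above all DMSO arrays, LK35 B only narrowly. The log2 difference was 0.77 with LK35 on this probe set (95% interval 0.18 to 1.36; adjusted p = 0.19) and 0.77 on 171926_x_at (0.15 to 1.39; adjusted p = 0.23), and it was between 0.29 and 0.68 with the other compounds over both probe sets.

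*dhs-9* came closest to a call. It read 211, 206 and 216 with DMSO, 363, 369.9 and 379.5 with LK34, and 365, 323 and 355 with LK35. The LK38 arrays read 405, 332 and 465, and the LK56 arrays 375, 397 and 337. All arrays of these 4 compounds were above every DMSO array, while LK32 (225, 142 and 282) lay on both sides. It passed the p limit with LK34 and LK38 (0.82 and 0.91, SE 0.19; adjusted p = 0.035 and 0.018) without reaching 2-fold, where 2.25% and 2.19% of all probe sets passed it upward.

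*dhs-21*, which encodes a dicarbonyl and L-xylulose reductase, varied widely between the LK35 arrays. It read 755, 604 and 874 with DMSO, and 30.6, 673 and 316 with LK35. LK35 A lay far below every other array, while LK35 B lay within the DMSO range. The difference of LK35 from DMSO was -1.98 on the log2 scale (SE 0.83; adjusted p = 0.33). LK56 (1249, 1353 and 1486) was above every DMSO array with a difference of 0.88 (95% interval -0.93 to 2.69). That interval uses the spread pooled over the 6 conditions, which came mostly from the LK35 arrays rather than from those of LK56 or DMSO.

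*dhs-12* and *dhs-6* had small differences with little spread. *dhs-12* read 1728, 1955 and 1974 with DMSO, and 1539, 1501 and 1456 with LK35. The LK38 arrays read 1425, 1514 and 1588, and the LK56 arrays 2507, 2796 and 2547. Its LK35 and LK38 arrays were below, and its LK56 arrays above, every DMSO array. The differences from DMSO were -0.33, -0.32 and 0.47 (SE 0.13; adjusted p = 0.25, 0.26 and 0.13), and those of LK35 and LK38 from LK56 passed the p limit (-0.80 and -0.79; adjusted p = 1.4e-03 and 1.7e-03), which 7.84% and 6.86% of all probe sets also did as lower. *dhs-6* differed from LK56 in the same way (-0.65 with LK35 and -0.58 with LK38; adjusted p = 6.7e-03 and 0.013).

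*dhs-19*, whose protein has also been found on lipid droplets, read 45.9, 20.4 and 64.6 with DMSO, 182, 139 and 155 with LK38, and 215, 164 and 129 with LK56. The arrays of LK38 and LK56 did not overlap those of DMSO, and the differences were 2.01 and 2.08 (SE 0.58; adjusted p = 0.090 and 0.16), with the spread among the DMSO arrays as wide as 20.4 to 64.6. The LK32 arrays (132, 70.4 and 194) also lay above every DMSO array, with a difference of 1.64 (adjusted p = 0.33, limma). Those of LK34 and LK35 overlapped DMSO. *dhs-25* read 22.2, 23.3 and 22.8 with DMSO, and its largest difference was 1.27 with LK34 (adjusted p = 0.17). The other 5 brighter members, *dhs-1*, *dhs-11*, *dhs-18*, *dhs-22* and *dhs-29*, had differences between -0.19 and 0.95. Their ranges over the 18 arrays were 477 to 1142, 659 to 1150, 672 to 2525, 850 to 1897 and 16.4 to 65.3.

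**Figure D3:**
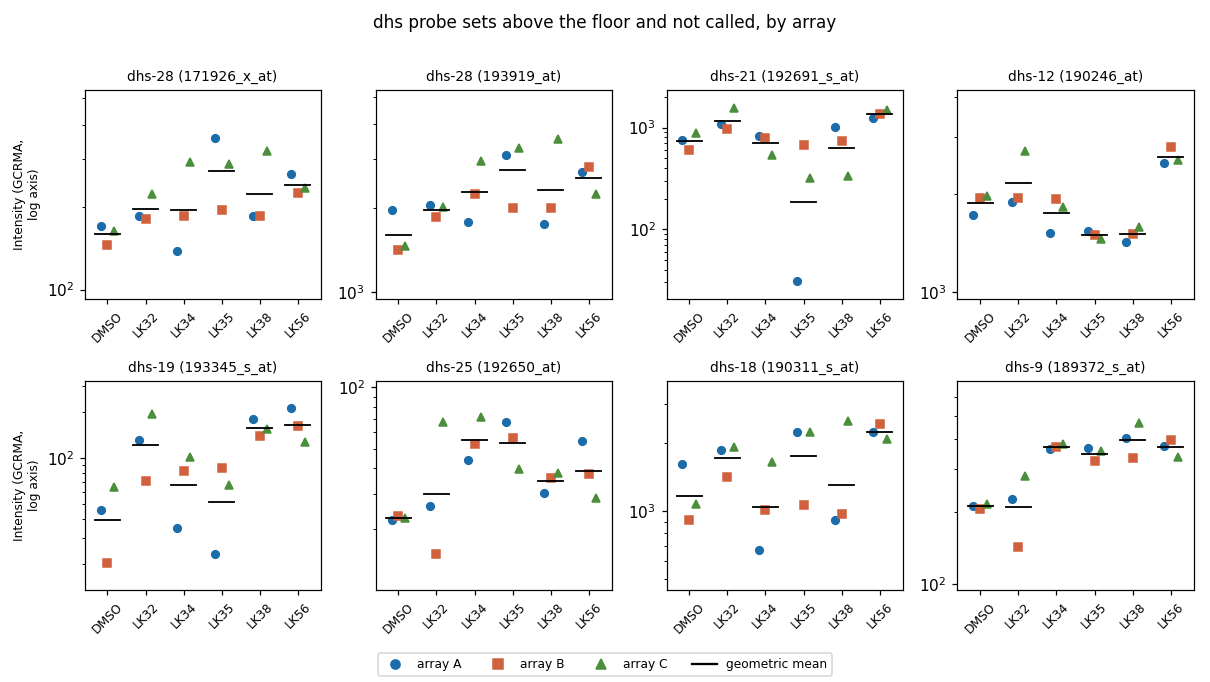
Intensity of 8 *dhs* probe sets that were above the floor and not called against DMSO, on a log axis, with points for single arrays (A, B and C of each condition) and bars for the geometric mean of 3 arrays. The *dhs-9* arrays of LK34, LK35, LK38 and LK56 lie above the DMSO arrays, with geometric means less than 2-fold above that of DMSO. LK35 A of *dhs-21*, at 30.6, lies apart from the other arrays.

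Among the 10 pairs of compounds, all at 1 dose and time, p values were adjusted over all probe sets within each pair. LK35 and LK38 had no called *dhs* probe set, against 0.191% of all probe sets called lower in LK35 and 0% called higher. At an unadjusted p under 0.05 limma gave 6 lower and 0 higher, beside 2.13% and 0.439% of all probe sets. *dhs-2* and *dhs-20* were lower with LK35 at the p limit, which 0.208% of all probe sets passed as lower (-0.99, 95% interval -1.34 to -0.63, adjusted p = 0.028; and -0.996, -1.37 to -0.62, adjusted p = 0.039), where both stopped just short of 2-fold. *dhs-14* (-2.01, -2.80 to -1.22; adjusted p = 0.054) and *dhs-23* (adjusted p = 0.079, at the floor in LK35) had larger differences that missed the p limit. For *dhs-3* the differences were -0.54 (-0.99 to -0.09) and -0.47 (-0.96 to 0.02), with an adjusted p of 1.0 for each. Without LK38 C, 3 *dhs* probe sets were called between LK35 and LK38, and without LK35 B 1 was.

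**Figure D4:**
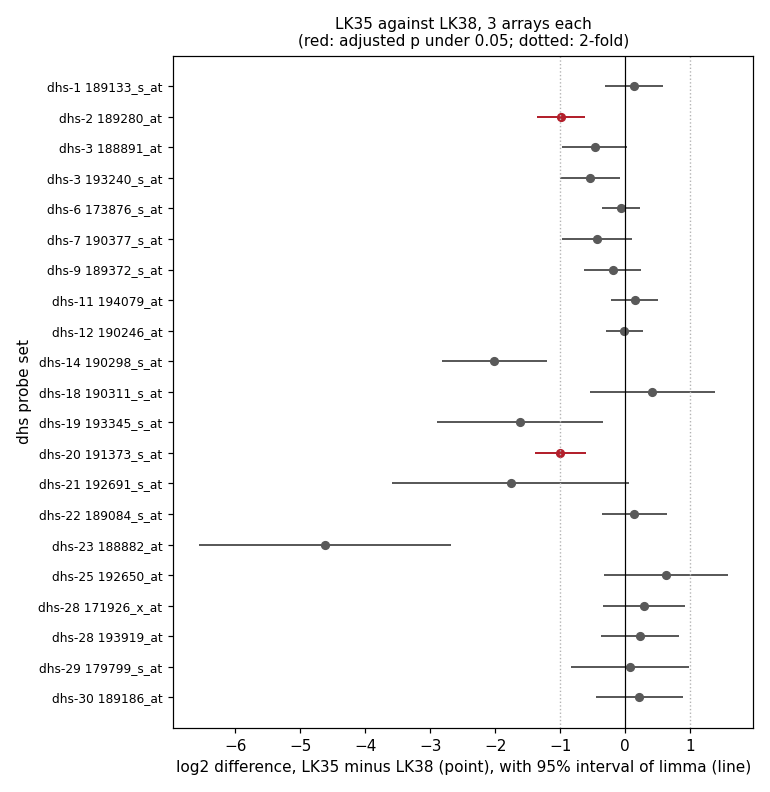
Log2 difference of LK35 from LK38 (points) with its 95% interval from limma (lines) for the 21 brighter *dhs* probe sets, 3 arrays each, where dotted lines mark 2-fold and red marks an adjusted p under 0.05. *dhs-2* and *dhs-20*, in red, lie at -0.99 and -0.996, and *dhs-23*, at the floor in LK35, is a lower bound in size.

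LK38 and LK56 also had no called *dhs* probe set, against 1.05% of all probe sets called higher in LK38 and 2.92% called lower. At an unadjusted p under 0.05 limma gave 5 higher and 5 lower (15.2% of the 33 each), beside 5.6% and 13.6% of all probe sets. All lay among the 21 brighter members (5 of 21 each way), beside 12.3% and 28.4% of all brighter probe sets. At the p limit alone, *dhs-20* and 193240_s_at of *dhs-3* were higher in LK38 (0.80 and 0.83; adjusted p = 0.012 and 0.025; 1.97% of all probe sets), and *dhs-6* and *dhs-12* were lower, as above (6.86%). LK32 was below the other compounds in every *dhs* call of its 4 pairs. Of all probe sets, 2.9% (LK34), 4.25% (LK35), 2.68% (LK38) and 0.106% (LK56) were called higher in LK32. At the p limit alone, 1 *dhs* probe set was higher in LK32 than in LK35 and 1 than in LK38 (6.2% and 4.4% of all probe sets). LK32 was lower than LK38 for 6 probe sets, *dhs-2*, *dhs-3* with both, *dhs-14*, *dhs-20* and *dhs-23* (1.06% of all probe sets lower), and lower than LK35 for 3, *dhs-20*, *dhs-30* and 193240_s_at of *dhs-3* (0.856%). Against LK56 it was lower for 4, *dhs-2*, *dhs-7*, *dhs-20* and *dhs-23* (0.129%), and against LK34 for *dhs-20* alone (1.14%).

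LK34 was lower than LK56 for *dhs-2*, *dhs-7*, *dhs-20* and *dhs-23* (3.12% of all probe sets lower), and lower than LK38 for *dhs-2* and *dhs-20* (0.146%). Between LK34 and LK35, *dhs-20* was the only probe set of the whole array called lower in LK34 (0.00443%). That call was lost without any 1 of LK34 A, LK34 B or the 3 LK35 arrays. LK35 was lower than LK56 for *dhs-7*, *dhs-21* and *dhs-23* (4.26%). The *dhs-21* difference was -2.86 (95% interval -4.67 to -1.05; adjusted p = 0.049) with LK35 A at 30.6 far below the others, and without that array 1 *dhs* probe set was called in this pair.

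The LK38 arrays did not deviate alike over the family. LK38 C was the lowest of the 3 for *dhs-14* (-1.14 from the mean of the group on the log2 scale), *dhs-23* (-2.65), *dhs-21* (-0.91) and *dhs-3* (-0.43 and -0.48). It was the highest for *dhs-18* (0.95) and *dhs-28* (0.53 and 0.61). In all it was the lowest of its group for 7 and the highest for 12 of the 21 brighter probe sets, against 35.2% and 46.6% of all brighter probe sets. Over all probe sets, each array correlated with the others of its condition at a mean r between 0.9863 and 0.9968, and LK35 A, LK32 C, LK35 B and LK38 C had the lowest values. Without array A of LK35 and arrays C of LK32 and LK38, an alternative chosen after the data were seen, the calls against DMSO numbered 0 (LK32), 3 (LK34), 5 (LK35), 6 (LK38) and 6 (LK56), all of them increases.

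**Figure D5:**
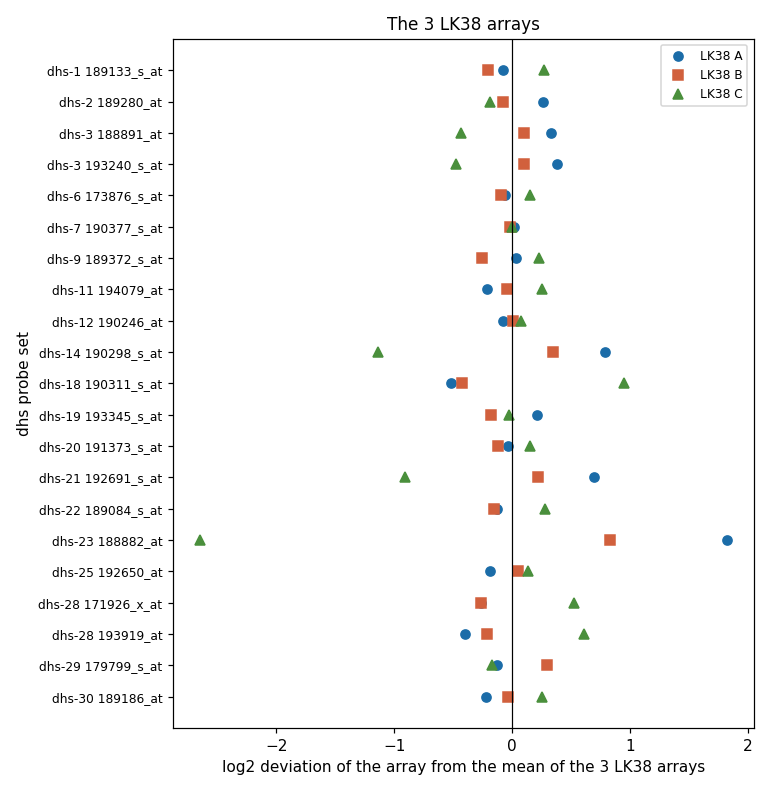
Log2 deviation of each LK38 array (A, B and C) from the mean of the 3 for the 21 brighter *dhs* probe sets. LK38 C lies at the left end for *dhs-14*, *dhs-21* and *dhs-23* and at the right end for *dhs-18* and *dhs-28*.

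RNA was taken from whole worms, so that fewer cells of a tissue and less RNA per cell cannot be told apart, and marker levels moved with some of the compounds that gave *dhs* calls. Of 31 probe sets of the *msp* genes, which encode the major sperm proteins, 30, 30 and 29 fell with LK34, LK35 and LK38 (median log2 differences -2.22, -2.46 and -2.04), while with LK32 and LK56 limma called 0 and gave 0 an unadjusted p under 0.05. Their summed intensity ranged from 81833 to 96176 over the DMSO arrays, from 16618 to 25515 for LK34, from 15278 to 16362 for LK35 and from 18132 to 27327 for LK38. It was 73868 to 75954 with LK32 and 67644 to 125095 with LK56. Of the *dhs* probe sets, those of *dhs-2*, *dhs-20* and *dhs-23* and 188891_at of *dhs-3* were called higher with both LK38 and LK56, that is, with and without the fall of sperm transcripts. The other called probe sets were not. For *dhs-3*, 193240_s_at was called with LK34, LK35 and LK38 and not with LK56 (log2 difference 0.93). *dhs-30*, called with LK35 alone, had differences of 0.95 (LK34), 1.27 (LK35) and 1.05 (LK38). Its differences were -2.2e-04 with LK32 and 0.25 with LK56. *dhs-14* was called with LK38 alone (1.24 with LK56), and *dhs-7* with LK56 alone. The part of sperm transcripts was not tested for these calls or for any other.

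Among 12 probe sets of intestine markers, 1 was called higher in LK32, 2 lower in LK34, 3 lower in LK35, 1 higher and 2 lower in LK38, and 0 in LK56. With LK56 limma gave an unadjusted p under 0.05 for 4 of these markers higher and 0 lower (10.5% and 0.794% of all probe sets). The summed intensity of the intestine markers was 48913 to 56560 for DMSO, 35329 to 52302 for LK34, 29575 to 41667 for LK35, 31485 to 53304 for LK38, 59664 to 65975 for LK32 and 58680 to 62053 for LK56. The largest share of these sums came from *asp-1*, at 36112 with DMSO and 22985 with LK35 (means, n = 3 each). *dhs-3*, which is expressed in the intestine, was called higher with LK35, where the sums lay below those of DMSO. It was also called higher with LK34 and LK38, where the sums overlapped those of DMSO. With LK56, where the sums lay above those of DMSO, 1 of its probe sets was called higher. The part of intestinal RNA was not tested. Of 18 probe sets of oocyte and eggshell markers 0 were called, with 3, 4 and 1 higher at the p limit with LK34, LK35 and LK38 in limma, 9, 11 and 7 at an unadjusted p under 0.05, and 0 by either with LK32 and LK56. The shares higher at an unadjusted p with LK34, LK35 and LK38 were 7.39%, 6.3% and 7.27% of all probe sets. Among the brighter ones they were 16.8%, 14.8% and 15.6%. None of the intestine or oocyte probe sets lay at the floor on all arrays of a condition, and 1 *msp* probe set did. Muscle (15 probe sets) and hypodermis (5) had 1 call between them, a lower *unc-15* with LK35. Muscle markers summed to 24974 to 28673 with DMSO and to less on every LK34 array (14059 to 22419) and LK35 array (12212 to 21458), with 3 and 6 lower at an unadjusted p under 0.05. The shares lower at that p with LK34 and LK35 were 4.77% and 6.07% of all probe sets (10.7% and 13.7% of the brighter ones). Hypodermis markers summed to 8035 to 8828 with DMSO, to 6546 to 7081 for LK34, and to more than DMSO for LK32 (9970 to 11482) and LK56 (10408 to 11204). The part of these tissues in the *dhs* values was not tested.

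Genes of the same pathways were counted for comparison. Among 14 probe sets of other short-chain dehydrogenases and reductases, *stdh-1*, a putative steroid dehydrogenase, rose with LK34, LK35 and LK38 (log2 differences 1.78, 1.65 and 1.75, SE 0.17; adjusted p = 5.0e-05, 9.7e-05 and 5.5e-05). *stdh-2*, which like *dhs-23* lay at the floor with DMSO, was at least 3.97 higher on the log2 scale with LK56 (adjusted p = 0.011). Among 9 probe sets of dafachronic acid synthesis and its receptor, which include *dhs-16*, *emb-8*, the NADPH-cytochrome P450 reductase, rose with LK35 and LK38 (1.06 and 1.63; adjusted p = 7.2e-03 and 2.6e-04). With LK34 it passed the p limit in limma without reaching 2-fold (0.92; adjusted p = 0.018). Only 1 of the 9 was among the brighter probe sets, and 5 or 6 lay at the floor on all arrays of each condition, so little can be said of the others. No call was made among the 9 probe sets of peroxisomal ascaroside shortening, which include those of *dhs-28*, and none passed the p limit in limma. Their median log2 differences were 0.65 (LK32), 0.39 (LK34), 0.77 (LK35), 0.52 (LK38) and 0.80 (LK56). At an unadjusted p under 0.05 limma gave 2, 1, 5, 1 and 4 higher in the same order. The shares higher at that p were 7.34%, 7.39%, 6.3%, 7.27% and 10.5% of all probe sets. Among the brighter ones they were 14.3%, 16.8%, 14.8%, 15.6% and 21.4%. Among the 18 probe sets of lipid droplet proteins and turnover, the only calls were those of *dhs-3*.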

How the data were processed

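RNA of N2 young adults was measured in 6 groups of 3 arrays (18 Affymetrix arrays). The deposited values are linear intensities that the authors summarized with GCRMA, a method that subtracts background and scales arrays to a common distribution, which would hide a shift shared by every transcript. The summarized values still differed between arrays. The median of the brighter probe sets ran from 356.8 to 544.7 over the arrays, and the share at the floor from 46.3% to 49.4%. The version of GCRMA is not given in the sources used here. Of 22625 probe sets, 77 controls were left out. By the array's annotation, 20766 probe sets have 1 gene symbol, 887 several and 895 none. Chromosomes and neighboring genes came from the RefSeq gene table. No column was left out (0 columns), and the number of arrays per group limits the precision.

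The log2 of the intensity, with no offset added, was analyzed in limma 3.58.1 (lmFit, eBayes; R 4.3.3), with 1 mean per group (12 residual and 0.332 prior degrees of freedom), for each compound against DMSO and for 10 pairs of compounds. Folds are ratios of geometric means, and against a group with all arrays at the floor (within 0.1% of 4.605) they are lower bounds. SE and 95% intervals are those of limma, from 1 spread per probe set pooled over the 6 groups. On simulated data, 67 of 100 probe sets changed by 1.5 and 95 of 100 changed by 3 on the log2 scale were recovered for LK34 against DMSO, 0 in the wrong direction. Among the unchanged probe sets of the 22548 there was 1 false call. The changed probe sets were drawn from the brighter ones alone, so recovery of dim ones was not tested. Every called *dhs* probe set is named, with the 12 brightest of the others, and the rest to account for all members. The members, the lists and the thresholds were chosen with earlier results of these data known. Alternatives were quantile normalization, median centering, an offset of 16, brighter probe sets alone, a trended robust fit, array weights, other rules for calling, a replicate block, probe sets of 1 transcript alone, fits to 2 groups, and leaving out each array. Figures used matplotlib.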

Additional observations from a re-analysis of the deposited data

How the results depend on the processing

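The 17 calls against DMSO kept their direction under every alternative run (272 of 315 such values stayed past the threshold and 43 did not). Counts of *dhs* probe sets called, where they moved by over 1.5 times, were as follows, with the cause not tested. With quantile normalization LK32 had 1 lower, LK34 0 higher, and LK32 against LK34 4 in either direction. With median centering LK32 had 1 lower, LK34 0 higher, LK34 against LK38 4 and LK35 against LK38 2. It also moved the median of all brighter probe sets from 0.12 to -0.080 (LK32), 0.064 to -0.14 (LK34), 0.040 to -0.039 (LK35), 0.053 to -0.14 (LK38) and 0.23 to 0.014 (LK56). With an offset of 16, LK34 had 0 higher. With brighter probe sets alone, LK34 against LK38 gave 4, LK35 against LK38 2, LK35 against LK56 5 and LK38 against LK56 1. The trended robust fit gave LK35 against LK38 1. Array weights gave LK32 1 higher, LK34 1 higher, 3 for LK32 against LK34, 2 for LK34 against LK35, 4 for LK34 against LK38, 4 for LK35 against LK38, 2 for LK38 against LK56 and 19 by the F test. By adjusted p alone, LK32 had 1 lower, LK34 4 higher, and the pairs 3 (LK32 against LK34), 5 (LK32, LK35), 2 (LK35, LK38), 6 (LK35, LK56) and 4 (LK38, LK56). By 2-fold alone, LK32 had 1 higher, LK35 1 lower, and the pairs 5 (LK32, LK35), 2 (LK34, LK35), 6 (LK34, LK38), 4 (LK35, LK38), 5 (LK35, LK56) and 3 (LK38, LK56). Adjusted over all comparisons at once, LK34 against LK38 gave 5 and LK35 against LK38 2. Without probe sets of several transcripts, a set that holds 16 of the 33, the increases numbered 1 (LK34), 1 (LK35), 3 (LK38) and 3 (LK56), the pairs 0 (LK32, LK34), 1 (LK32, LK35), 3 (LK32, LK38), 2 (LK32, LK56), 0 (LK34, LK35), 1 (LK34, LK38), 2 (LK34, LK56) and 1 (LK35, LK56), and the F test 5. Fits to 2 groups alone, with fewer arrays for the spread, gave 2 higher with LK35, LK38 and LK56 each, and pairs of 0 (LK32, LK34), 1 (LK32, LK35), 1 (LK32, LK38), 0 (LK32, LK56), 0 (LK34, LK35), 1 (LK34, LK38) and 1 (LK35, LK56). Without array A of LK35 and arrays C of LK32 and LK38, chosen after the data were seen, the pairs gave 5 (LK32, LK34), 0 (LK34, LK35), 4 (LK34, LK38), 2 (LK35, LK38) and 2 (LK38, LK56).

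When 1 array was left out, the counts ranged from 0 to 1 lower with LK32, 0 to 1 higher with LK34, 3 to 4 with LK35, 6 to 6 with LK38 and 4 to 5 with LK56. The pairs ranged from 1 to 5 (LK32 against LK34 and against LK35), 5 to 7 (LK32, LK38), 2 to 5 (LK32, LK56), 0 to 1 (LK34, LK35), 1 to 4 (LK34, LK38), 4 to 5 (LK34, LK56), 0 to 3 (LK35, LK38), 1 to 4 (LK35, LK56) and 0 to 2 (LK38, LK56), and the F test from 9 to 12. The count for LK32 against LK34 was 5 without LK32 C and 2 without LK34 B, and that for LK32 against LK35 was 5 without LK32 C and 1 without LK32 B. LK32 against LK56 gave 2 without LK56 B. LK34 against LK38 gave 4 without LK38 C and 1 without LK34 A, LK34 C or LK38 A. LK35 against LK56 gave 1 without LK35 A or LK56 A, and LK38 against LK56 2 without LK38 C. LK32 had 1 lower without DMSO C, LK32 A or LK32 C. Beside the calls lost without 1 array given above, those of *dhs-3* with LK34 were lost with quantile normalization, median centering, an offset of 16 and array weights. That of 188891_at with LK56 was lost with quantile normalization and median centering. That of *dhs-23* with LK38 was lost with an offset of 16, where its log2 difference was 2.82. Fits to 2 groups alone lost the calls of *dhs-30* and 193240_s_at of *dhs-3* with LK35, of *dhs-14*, *dhs-23* and both *dhs-3* probe sets with LK38, and of *dhs-7*, *dhs-23* and 188891_at of *dhs-3* with LK56. The call of *dhs-30* with LK35 was also lost without probe sets of several transcripts.

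The sources do not say whether the letters A, B and C mark a shared batch, and the letters were not used as pairs. Over 45 pairs of arrays with the same letter, the deviations of all brighter probe sets correlated between -0.458 and 0.787, with 15 over 0.1, against 26 of 90 pairs with different letters. Between LK34 and LK38 all 3 same-letter pairs were over 0.1 (0.542, 0.103 and 0.787). A replicate block by letter gave 1 call for LK35 against LK38 and lost the call of 188891_at of *dhs-3* with LK56. Depth has no counterpart on arrays, and signals at the floor limit what can be said of the 12 dim or undetected probe sets.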

Other observations

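Alcohol and aldehyde dehydrogenases of other folds, 18 probe sets of 16 genes, moved in both directions. *adh-1*, an alcohol dehydrogenase, rose from 2706 ± 899 with DMSO to 15251 ± 3453 with LK34 (mean ± SD of the intensity, n = 3 each; log2 difference 2.53, SE 0.35, adjusted p = 1.2e-03, limma) and fell with LK56 to 807 ± 334 (log2 difference -1.77, adjusted p = 0.044). *alh-5*, an aldehyde dehydrogenase, rose from 12.8 ± 0.32 to 42.7 ± 12.5 with LK32 and 44.3 ± 2.94 with LK56 (1.69 and 1.78, SE 0.21; adjusted p = 2.2e-03 and 1.4e-03). *alh-13* rose with LK34, LK35 and LK38 (1.86, 1.17 and 1.57, SE 0.26; adjusted p = 1.1e-03, 0.025 and 3.8e-03), and *alh-10* with LK38 (1.55; adjusted p = 0.040). The intensities of *alh-5* and *alh-13* with DMSO were near 13, close to the floor.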
